A study of Mus musculus with 4 samples.

Results

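The genes described here encode 10 neural RNA-binding proteins: the Musashi genes Msi1 and Msi2, the Quaking gene Qk, the polypyrimidine tract-binding protein genes Ptbp1 and Ptbp2, the Elavl (Hu protein) genes Elavl1 to Elavl4, and Celf1. They were taken by name, and every probe set that the platform annotation assigns to 1 of them alone was used. This gave 30 probe sets, between 2 and 5 for each gene, out of 20380 probe sets, controls aside, with a single symbol that represent 12393 genes. The cells were neural stem cells of the mouse ganglionic eminences at embryonic day 14.5, on a C57/Bl6 background, kept in a serum-free culture with EGF. The study has 1 array of wild-type cells (WT) and 3 arrays of cells labelled Olig1 KO, which lack the oligodendrocyte lineage transcription factor Olig1 per the label. The KO samples are called KO1, which has no number in its title, KO2 (titled 37) and KO3 (titled 38). The labels state neither the deleted part of Olig1 nor whether the KO samples came from different embryos or cultures, so p-values here reflect only how far these samples scatter, and that scatter can be technical.

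Proteins of these families bind short motifs in RNA and change how transcripts are spliced, transported, stored or translated. Musashi proteins repress translation of their targets in neural stem cells. Quaking regulates splicing and RNA stability in glia and is needed for myelin. Ptbp1 is the splicing repressor of progenitors, and it keeps its paralogue Ptbp2 low by skipping a Ptbp2 exon; Ptbp2 takes over in young neurons. Among the Hu proteins, Elavl1 (HuR) is found in most cells and stabilizes AU-rich transcripts, whereas Elavl2, Elavl3 and Elavl4 are neuronal. Celf1 binds GU-rich elements and acts in splicing and RNA decay.

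The arrays differed in background and in several control signals. Values are MAS5 signals, the summary intensity of a probe set on a linear scale. At background means a signal no higher than the brightest of 27 bacterial control probe sets with no target in that array. This level was 30.5 in the WT array and 21.3, 39.99 and 87.8 in KO1, KO2 and KO3, so dim genes were hardest to measure in KO3. The ratio of 3' to 5' beta-actin signal, which rises when RNA is degraded or incompletely copied, was 1.11 in the WT array and 1.25, 1.30 and 1.82 in the KO arrays. The same ratio for Gapdh had another order, with 0.759 in WT and 0.794, 1.03 and 0.842 in the KO arrays. KO2 and KO3 stood apart in the 18S ribosomal RNA control signal (median of 3 probe sets), at 946 and 2823 against 4.64 in WT and 7.24 in KO1. Their hybridisation control probe sets were also brighter, with a median ratio to WT of 1.89 and 2.75, against 0.898 in KO1. The part of these array differences in any result was not tested. Xist, expressed from the inactive X chromosome, was bright in the WT array and KO1 (9480 and 8472) and dim in KO2 and KO3 (161 and 46.5). Eif2s3y, a Y chromosome gene, ran the other way, at 0.608 and 1.53 in the WT array and KO1 and 654 and 1160 in KO2 and KO3. The arrays thus formed a pair with the signals of female cells and a pair with those of male cells, which cut across genotype. KO1 therefore did not share an embryo with KO2 or KO3. With the pair as a block, the fitted difference of a probe set is that of KO1 from the WT array, since KO2 and KO3 have no wild-type array in their pair. Over 13575 tested probe sets, the log2 values of the WT array correlated with those of KO1, KO2 and KO3 at 0.976, 0.945 and 0.920. The Olig1 signal was 7618 in the WT array and 3840, 4438 and 8548 in the KO arrays. Since the part of Olig1 that the probe set detects was not known, it does not check the labels.

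No probe set of these genes passed the test for a difference between the KO arrays and the WT array, nor did any other probe set. The test was limma on log2(signal + 14.4), two-sided, with p-values adjusted by Benjamini-Hochberg across the 13575 probe sets left after the dimmest 40% were removed. It called 0 probe sets (0% of those tested) at an adjusted p under 0.05, and 324 (2.39%) had an unadjusted p under 0.05. Of the 30 probe sets of the RNA-binding protein genes, 24 entered the test, at least 1 for each gene, and each had a limma adjusted p of 0.999. A single one of them, for Elavl4, had an unadjusted p under 0.05. The WT signal lay below all 3 KO signals for 6 of the 24, against 22.6% of all tested probe sets, and above all 3 for another 6, against 23.3%, so both shares were near the background. Their median log2 difference was -0.0059, beside -0.011 over all tested probe sets. The KO arrays themselves were at least 2-fold apart, on the log2(signal + 14.4) scale, for 9 of the 24 probe sets, in 8 genes, against 18.3% of all tested probe sets. In these bulk samples, fewer cells of a type and less RNA per cell cannot be told apart.

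**Figure D1:**
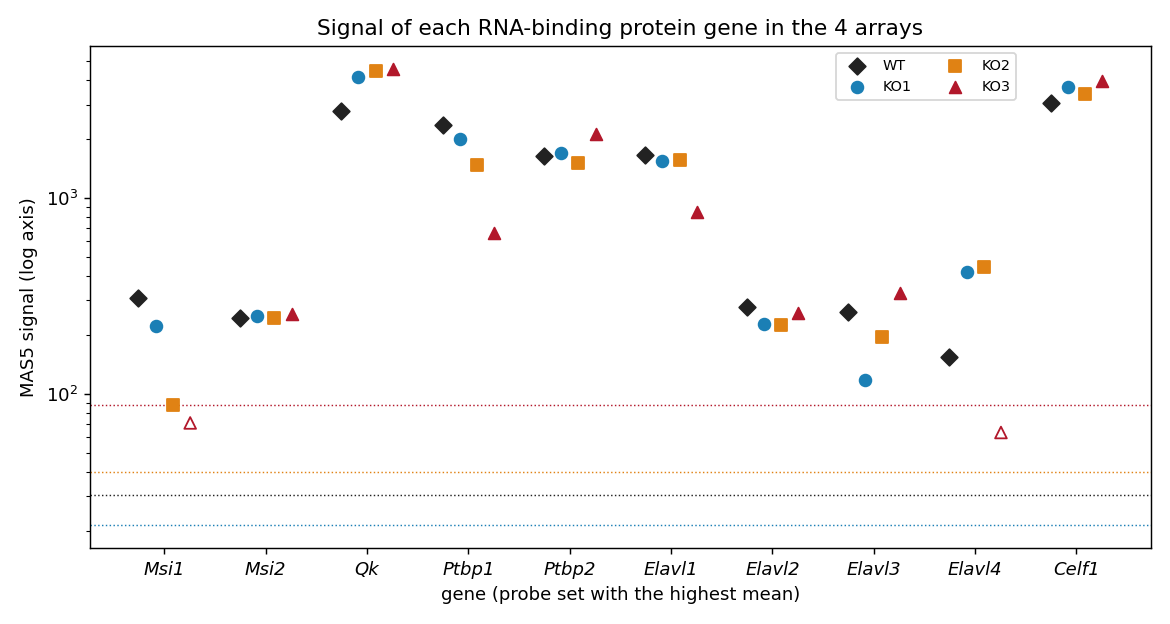
MAS5 signal (log axis) of the probe set with the highest mean for each of the 10 genes in the WT array (diamond) and KO1 (circle), KO2 (square) and KO3 (triangle). Dotted lines mark each array's background level and open symbols are signals at background; Msi2 lies between 244 and 256 in all 4 arrays, whereas Ptbp1 ranges from 2356 in WT to 662 in KO3.

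**Figure D2:**
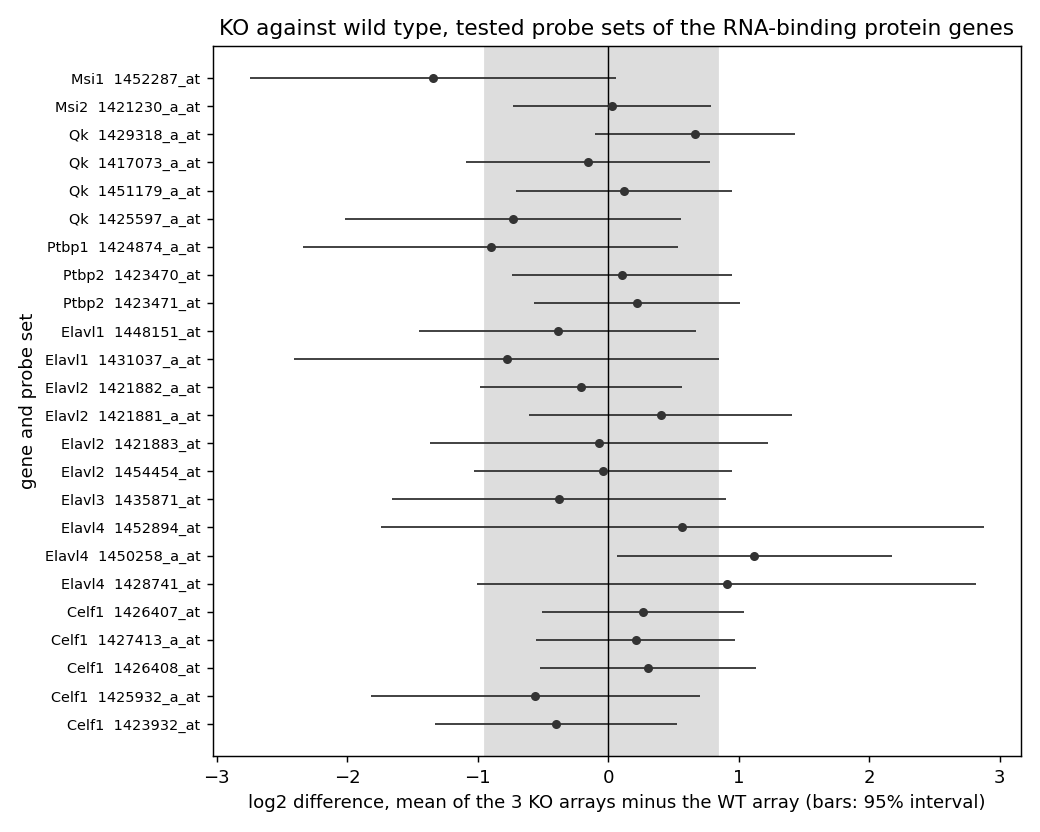
Log2 difference (mean of the 3 KO arrays minus the WT array) with its 95% limma interval for the 24 tested probe sets, and in grey the central 95% of all tested probe sets (-0.94 to 0.84). The interval of Elavl4 probe set 1450258_a_at is the one that does not include 0, before any adjustment for the number of tests.

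Msi1 and Msi2, the Musashi paralogues of neural stem cells, gave unlike pictures. Msi1 probe set 1452287_at gave a signal of 308 in the WT array and 223, 87.2 and 71.0 in KO1, KO2 and KO3. All 3 KO signals were below the WT signal, and that of KO3 was at background, so the size of the difference is uncertain. The log2 difference was -1.34 (SE 0.59, limma adjusted p = 0.999), with a 95% interval from -2.75 to 0.062. Within the pair that shares a high Xist signal, KO1 had 0.724 times the WT signal, a log2 difference of -0.44, which is also the value with the pair as a block. The 2 arrays with low Xist and high 18S signal had 0.283 and 0.230 times the WT signal. The other Msi1 probe set, 1421409_at, was at background in all 4 arrays, with signals from 10.7 to 33.0, and gives no second reading.

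Msi2 probe set 1421230_a_at, whose suffix marks probes shared by several transcripts of a gene, was the most even of the tested probe sets of these genes. Its signal was 245 in the WT array and 250, 244 and 256 in KO1, KO2 and KO3, so the WT array lay within the KO arrays. The log2 difference was 0.028 (SE 0.32), and its 95% interval runs from -0.73 to 0.79. The other Msi2 probe set, 1421231_at, was too dim to be tested and did not share this evenness. It gave 25.7 in the WT array, at background, and 49.4, 138 and 119 in the KO arrays, all above background. On the log2 scale with the pseudocount, the KO mean was at least 2.43-fold higher than the WT background level. This rests on 1 WT array and no test. The bound does not hold for KO1 alone, whose signal of 49.4 was nearer to the WT background level, 30.5.

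Qk, the glial RNA-binding protein gene that produces several proteins by alternative 3' ends, was bright on 4 probe sets that did not share a direction. On probe set 1429318_a_at the signal was 2774 in the WT array and 4172, 4471 and 4575 in KO1, KO2 and KO3. The KO arrays lay close to each other, at 1.504 to 1.65 times the WT signal, and the log2 difference was 0.66 (SE 0.32, 95% interval -0.100 to 1.43). Probe set 1425597_a_at went the other way, with 1142 in the WT array and 698, 411 and 1103 in the KO arrays. All 3 were below wild type, but KO3 by a factor of only 0.966, and the log2 difference was -0.73 (SE 0.54).

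The remaining Qk probe sets straddled the WT array. Probe set 1417073_a_at gave 4133 in the WT array and 4689, 2835 and 3832 in the KO arrays, and 1451179_a_at gave 3534 against 4551, 3378 and 3700. Their log2 differences were -0.16 (SE 0.39) and 0.12 (SE 0.35). None of the 4 passed the test, and the mean of all 4 differed by -0.025. Which Qk transcripts each probe set detects was not known here, and differences between probe sets of the gene were not tested.

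Ptbp1, the splicing repressor of neural progenitors, had a different signal in each array on its bright probe set, 1424874_a_at. Its signal was 2356 in the WT array and 2007, 1479 and 662 in KO1, KO2 and KO3. Every KO signal was below the WT signal, but the KO arrays spanned 3.03-fold among themselves. The log2 difference of -0.90 (SE 0.60, limma adjusted p = 0.999) was smaller than this span of 1.58 log2 units, and it was -0.45 without KO3 and -0.23 with the pair as a block. The arrays ran in the reverse order of their beta-actin 3'/5' ratio and of their 18S signal. The Gapdh ratio, which was highest in KO2, had another order. The second Ptbp1 probe set, 1450443_at, was at background in the WT array (5.88) and in KO3 (53.1), and above it in KO1 and KO2 (66.9 and 73.5). It was too dim to be tested, and with 2 of its 4 signals at background it sets no bound on a fold.

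Ptbp2, the neuronal paralogue that Ptbp1 restrains, varied little. Probe set 1423470_at gave 1633 in the WT array and 1697, 1515 and 2126 in KO1, KO2 and KO3, so the WT array fell inside the KO values. The log2 difference was 0.11 (SE 0.35, 95% interval -0.73 to 0.95), and -0.027 without KO3. Probe set 1423471_at gave 121 against 126, 159 and 146, with the WT array lowest and a log2 difference of 0.22 (SE 0.33). Relative to the WT array, the log2 ratio of the brightest Ptbp2 to the brightest Ptbp1 probe set was 0.28, 0.56 and 2.19 in KO1, KO2 and KO3. The ratio was largest in KO3, where these probe sets had their lowest Ptbp1 and their highest Ptbp2 signal. On Ptbp2 probe set 1423471_at, KO2 was the highest array instead. KO3 also had the highest beta-actin 3'/5' ratio, 1.82, and 18S signal, 2823, but not the highest Gapdh ratio. A link between the Ptbp1 and Ptbp2 values was not tested.

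**Figure D3:**
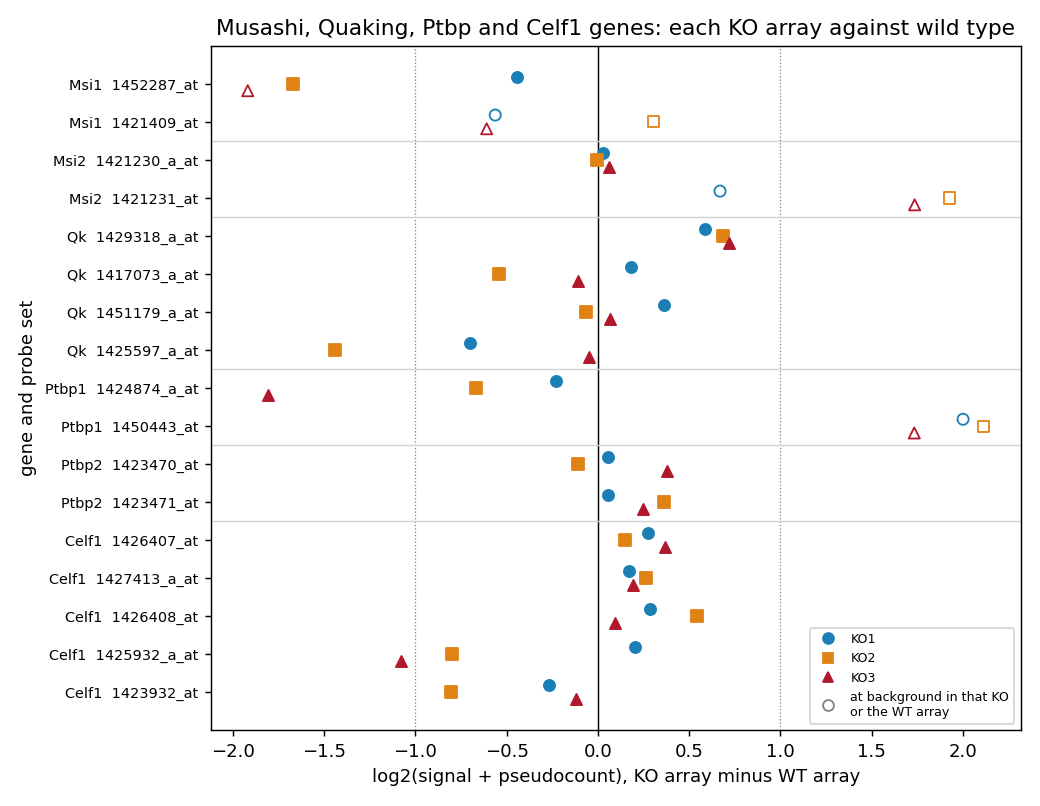
Difference of each KO array from the WT array, in log2(signal + 14.4) units, for the 17 probe sets of Msi1, Msi2, Qk, Ptbp1, Ptbp2 and Celf1; open symbols mark a signal at background in that KO array or in the WT array, and dotted lines mark a 2-fold difference. The 4 Qk probe sets scatter on both sides of 0, while 3 of the 5 Celf1 probe sets lie above 0 in every KO array.

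Elavl1, which encodes the widely expressed HuR, was low in KO3 on both of its probe sets. Probe set 1448151_at gave 1659 in the WT array and 1539, 1556 and 846 in KO1, KO2 and KO3. KO1 and KO2 stood at 0.928 and 0.938 times WT, and KO3 at 0.510 times. Probe set 1431037_a_at gave 1037 against 1041, 737 and 277, a 3.76-fold span among the KO arrays. The log2 differences were -0.39 (SE 0.45) and -0.78 (SE 0.68), neither larger than the KO range. Without KO3 the first was -0.100, and with the pair as a block -0.11. KO3 had the highest beta-actin 3'/5' ratio, 1.82, and the highest 18S signal, 2823, whereas its Gapdh ratio, 0.842, was below that of KO2.

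Among the neuronal Elavl genes, Elavl4 (HuD), which stabilizes transcripts of growing neurons, was higher in KO1 and KO2 than in WT on all 3 of its probe sets, at 2.62 to 3.39 times the WT signal. On probe set 1450258_a_at the signal was 105 in the WT array and 273, 325 and 163 in KO1, KO2 and KO3. The WT array was below every KO array and all 4 signals were above background. The log2 difference was 1.12 (SE 0.44, 95% interval 0.066 to 2.17), with an unadjusted limma p of 0.040 and an adjusted p of 0.999.

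The other Elavl4 probe sets likewise had KO1 and KO2 above WT, but KO3 at background. Probe set 1452894_at gave 154 in the WT array, 419 and 447 in KO1 and KO2, and 63.4 in KO3. Probe set 1428741_at gave 109, then 341 and 369, then 76.3. On both, the WT signal thus lay between those of KO3 and the other KO arrays, which were up to 7.05-fold apart. Log2 differences were 0.57 (SE 0.97) and 0.91 (SE 0.80), and the first was 0.17 without KO1, 0.12 without KO2, 1.41 without KO3 and 1.36 with the pair as a block. Both share a source transcript record, so they are not independent readings of the gene.

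Elavl3 (HuC), a marker of young neurons, leaned the other way. Its brightest probe set, 1435871_at, gave 261 in the WT array and 118, 196 and 329 in KO1, KO2 and KO3, so the WT array lay inside the KO values. The log2 difference was -0.38 (SE 0.54, limma adjusted p = 0.999), -0.72 without KO3, -0.035 without KO1 and -1.06 with the pair as a block. Both dimmer probe sets, which were not tested, had the WT array highest. Probe set 1455484_at gave 85.0 against 33.0, 53.9 and 29.3, the last at background. Probe set 1452524_a_at gave 93.8 in the WT array and was at background in all 3 KO arrays (10.6, 15.8 and 22.3). On the log2 scale with the pseudocount, the WT signal was at least 1.85-fold higher than the mean of the KO background levels. This bound does not hold for each KO array. The background level of KO3, 87.8, was close to the WT signal, so KO3 alone allows almost no difference.

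Elavl2 (HuB), the third neuronal member, had 5 probe sets with WT signals between 53.0 and 276. The brightest, 1421882_a_at, gave 276 in the WT array and 227, 225 and 260 in the KO arrays. All 3 KO arrays were lower, at 0.816 to 0.940 times WT, and the log2 difference was -0.21 (SE 0.32, 95% interval -0.99 to 0.56). On the other 4 the WT array fell within the KO values. KO3 was the highest array on each of those 4, though at background on 1 of them (1433052_at), for example 315 on 1421881_a_at against 178 in the WT array and 167 and 260 in KO1 and KO2. KO1 and KO2 were thus not high on Elavl2 in the way they were on Elavl4. Probe sets 1421881_a_at and 1421883_at share a source transcript record with the brightest one. Probe sets 1454454_at and 1433052_at share another, so the Elavl2 probe sets are not all independent readings.

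**Figure D4:**
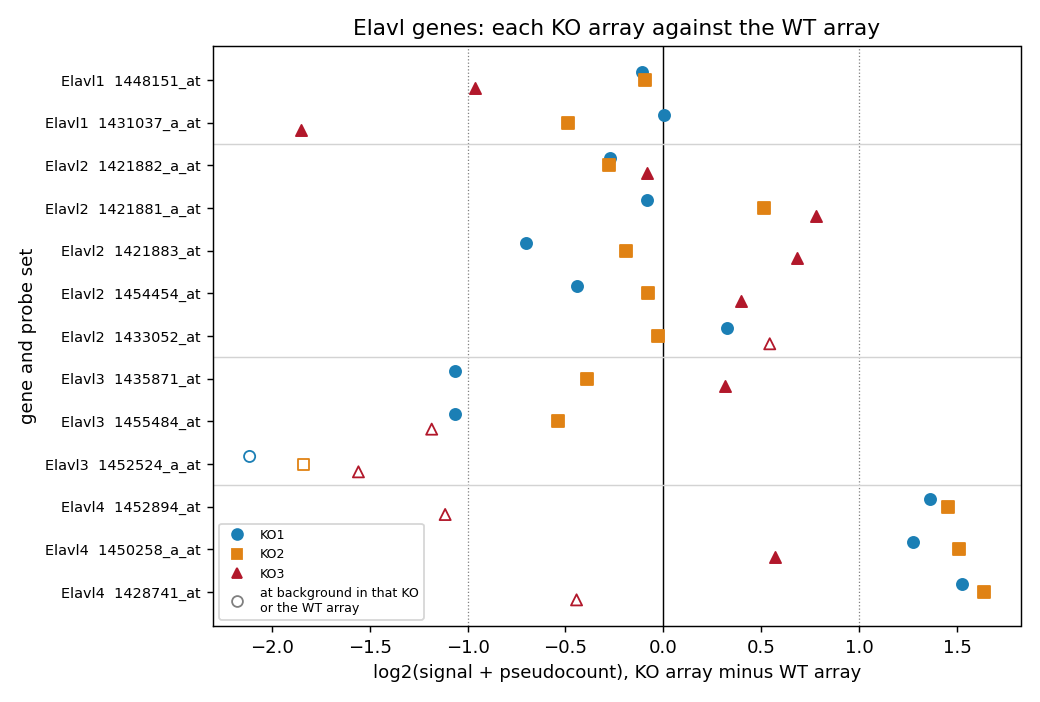
Difference of each KO array from the WT array, in log2(signal + 14.4) units, for the 13 probe sets of Elavl1 to Elavl4; open symbols mark a signal at background in that KO array or in the WT array. KO1 and KO2 lie above 1 log2 unit on all 3 Elavl4 probe sets, and KO3 is the lowest array for both Elavl1 probe sets.

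Celf1, the GU-rich element-binding protein gene, had every KO signal above WT on its 3 brightest probe sets. Probe set 1426407_at gave 3061 in the WT array and 3714, 3395 and 3957 in KO1, KO2 and KO3. Probe set 1427413_a_at gave 1721 against 1942, 2066 and 1971, and 1426408_at gave 820 against 1003, 1201 and 877. The WT array was lowest on all 3. Their log2 differences were 0.26 (SE 0.33), 0.21 (SE 0.32) and 0.31 (SE 0.35), each with a limma adjusted p of 0.999. Probe sets 1426407_at and 1426408_at share a source transcript record, so they are not independent readings. Both dimmer Celf1 probe sets had lower KO means, with 324 in the WT array against 376, 180 and 146 on 1425932_a_at, and 224 against 183, 122 and 205 on 1423932_at.

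Other neural RNA-binding protein genes were read from a list of 39 names that covers the Rbfox, Nova, other Celf, Mbnl, Khdrbs, Fmr1, Pum, Stau, Cpeb and Zfp36 families. Of these, 32 had a probe set and 24 were tested, each by its brightest probe set. No gene passed the test. All 3 KO arrays lay above WT for 8 genes and below it for 2, against 22.6% and 23.3% of all tested probe sets. The median log2 difference was 0.034. By moderated t the leading genes were Zfp36l2 and Zfp36l1, which promote decay of AU-rich transcripts that Elavl1 protects, with Rbms1 and Fxr2. Zfp36l2 gave 1306 in the WT array and 860, 524 and 920 in KO1, KO2 and KO3, below wild type in each, a log2 difference of -0.80 (SE 0.42). Zfp36l1 gave 982 against 1156, 1319 and 1542, above wild type in each, a difference of 0.43 (SE 0.34). Rbms1 and Fxr2 differed by 0.79 and -0.59. Raver1, a co-repressor of Ptbp1 named after its values were seen, gave 322 against 336, 239 and 139. Like Ptbp1 it was lowest in KO3, but so were Khdrbs1, Hnrnpd, Syncrip, Stau1 and other genes of this list. Matr3 and Zfp36l1 were highest in KO3. Rbfox3 (NeuN), the marker of mature neurons and also named after its values were seen, gave 36.3 in the WT array and was at background in the KO arrays. It was too dim to be tested, and its WT signal was just above the background level of that array, 30.5.

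Targets and partners of these proteins were read from a second list, of 30 names, of which 27 had a probe set and 20 were tested. None passed. All 3 KO arrays lay above WT for 3 genes and below it for 6, against 22.6% and 23.3% of all tested probe sets. The median log2 difference was -0.29. The largest moderated t belonged to Mapt, Src, Cdkn1a and Cdkn1b. Src, whose neuronal exon is a classic Ptbp1 target, gave 334 in the WT array and 294, 129 and 247 in the KO arrays, and the log2 difference was -0.63 (SE 0.48). Cdkn1a, the cell cycle inhibitor gene whose translation Musashi represses and whose transcript Elavl1 stabilizes, gave 3330 against 4743, 5718 and 3575, a difference of 0.46 (SE 0.38). Mapt and Cdkn1b, both lower in each KO array, differed by -0.49 and -0.42. Numb, the Notch antagonist gene repressed by Msi1, gave 291 against 313, 399 and 200. Gap43, the growth cone gene whose transcript Elavl4 binds, gave 809 in the WT array and 1036, 1776 and 731 in the KO arrays. Numb and Gap43 were named after their values were seen. Gap43, like the brightest Elavl4 probe set, was highest in KO2, then KO1, then wild type, and lowest in KO3. Numb and Ccnd1 of this list, the latter also named after its values were seen, had the same order. Elavl4 probe set 1450258_a_at did not, and a link of Gap43 to Elavl4 was not tested.

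The cultures carried the neural stem cell markers: 10 of 11 measured genes were above background in all 4 arrays, with Sox2 at 4073 in the WT array and 3759 to 4848 in the KO arrays. The levels were not all even. Hes5, a Notch effector gene and the first of the list by moderated t, gave 454 in the WT array and 181, 157 and 412 in the KO arrays (log2 difference -0.95, limma adjusted p = 0.999). Nes, the nestin gene, gave 1719 against 1838, 1666 and 846, and like Sox2 it was named after its values were seen. Because Elavl2, Elavl3 and Elavl4 are neuronal genes, the neuron markers are given beside them. All 14 listed genes were measured and 13 were above background in the WT array and 11, 11 and 9 in KO1, KO2 and KO3. Their summed signal was 4424 in the WT array and 4263, 4445 and 4060 in the KO arrays. The brightest genes in that sum, Map2, Gap43 and Stmn3, did not share a direction. Map2 was below WT in every KO array, Gap43 was highest in KO2 and Stmn3 in KO3, so the sum does not show even neuron markers. Dcx, the doublecortin gene of migrating neurons, gave 126 in the WT array and 57.0, 52.6 and 195 in the KO arrays. It was lowest in KO1 and KO2, where Elavl4 was highest, and was named after its values were seen. Ncam1, an adhesion gene on the neuron list, gave 173 against 404, 430 and 397, with every KO array above wild type (log2 difference 1.18, limma adjusted p = 0.999). Map2, the dendritic microtubule protein gene and next on that list by t, had every KO array below wild type, at 1447, 784 and 593 against 1766 (log2 difference -0.998). The part of neurons in the Elavl values was not tested. For the glial reading of Qk, 5 of 11 oligodendrocyte lineage markers were above background in all 4 arrays, with a summed signal of 2872 in the WT array and 2557, 2865 and 4426 in the KO arrays. Cnp alone made up 1944 of the WT sum and 1860, 2129 and 3283 of the KO sums. Nkx2-2, a transcription factor gene of the lineage and first on the list by t, was lower in each KO array, with 371 in WT against 193, 111 and 92.0, and the log2 difference was -1.45. It had an unadjusted limma p of 0.015 and an adjusted p of 0.999. The next 2 genes by t went the other way in each KO array. Cspg4 gave 124 in WT against 159, 177 and 205, and Sox10 gave 106 against 132, 126 and 200. Of the 5 tested genes of this list, 2 were above WT in all 3 KO arrays and 1 was below. The shares of all tested probe sets were 22.6% and 23.3%. The median log2 difference of the list was 0.27. Genes of mature oligodendrocytes differed among themselves. Mag was at background in the WT array (17.5) and above it in every KO array (89.9, 91.0 and 137), Mbp was above background throughout (173 against 53.2, 124 and 224), and Mog, Mobp and Myrf were at background throughout. Of 8 astrocyte markers, 7 were above background in all 4 arrays, with a summed signal of 9724 in WT and 7925, 6007 and 8099 in the KO arrays. Among the 7 tested, 0 were above WT in all 3 KO arrays and 3 were below, and none passed the test. Their median log2 difference was -0.52. The part of glial cells in the Qk values was not tested.

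Probe sets of other genes with the most similar profile were sought for each gene whose brightest probe set was above background in all 4 arrays and spanned at least 1 log2 unit, which left Ptbp1 and Elavl3. Likeness was the largest difference between centred log2 values over the 4 arrays. Brd2 and Hnrnpl came closest to Ptbp1, with largest deviations of 0.022 and 0.041 log2 units. Brd2 gave 1008 in the WT array and 839, 617 and 280 in the KO arrays. In all, 96 probe sets of other genes lay within 0.25 log2 units of the Ptbp1 profile. Zfp318 and Lrrc51 came closest to Elavl3, both with a largest deviation of 0.11, and 46 probe sets lay within 0.25. Such likeness over 4 arrays is a description only.

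Single KO arrays were often further from the WT array than the mean. In KO1, 4 of the 24 tested probe sets, in Elavl3 and Elavl4, were at least 2-fold from wild type, against 2.01% of all tested probe sets. In KO2 there were 5, in Msi1, Qk and Elavl4, against 7.12%. In KO3 there were 5, in Msi1, Ptbp1, Elavl1, Elavl4 and Celf1, against 13.0%. These are counts of probe sets, and all 3 Elavl4 probe sets entered those of KO1 and KO2. The counts of KO1 and KO2 are thus not counts of separate genes. Elavl4 was the one gene on all 3 of these lists. Its signals were higher than wild type in KO1 and KO2 on each of its 3 probe sets, whereas in KO3 they were lower and at background on 2 and higher and above background on 1450258_a_at.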

How the data were processed

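The deposited values are MAS5 signal intensities, 1 per probe set and array, on a linear scale; the submitters' processing notes name MAS5 without version or scaling target. The trimmed mean (2% of probe sets off each tail) was 500.2 to 500.3 in each array, so the authors had scaled the arrays alike, and no further scaling was applied. Each array received biotin-labelled cRNA from 6 µg total RNA, per the labels' protocols. The table held 22690 probe sets, 64 of them controls; the platform annotation gave 1 symbol to 20393 (13 of them controls, which were left out), several to 691 and none to 1606. Symbols were updated by gene identifier against RefSeq (GRCm38.p6); 24 genes absent from it kept the platform's symbol.

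Intensities were turned into log2(signal + 14.4), the pseudocount being 0.1 times the median of all values, so folds of dim genes are understated. Probe sets in the lowest 40% by mean log2 value were left out of the test. KO was compared with wild type by limma 3.58.1 in R 4.3.3 across all kept probe sets, with 2 residual and 4.75 prior degrees of freedom; only the KO arrays gave a spread, which was taken to hold for the WT array too. The code was tested on simulated data. A fold given as "at least" sets a group at background to each array's background level. Genes named by rule were the 10 described, up to 4 genes of each list by moderated t, and the 2 closest profiles. Other list genes, among them Cnp, Mag, Mog, Mobp and Myrf, were named outside this rule, with their values known. Members, lists and the pairs of arrays were chosen with earlier results of these data known. Precision is limited by having 4 arrays. Probe sequences, detection calls and scanner files were not used here.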

Additional observations from a re-analysis of the deposited data

How the results depend on the processing

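No probe set of the RNA-binding protein genes was called under any alternative run (scaling, pseudocount, filter, 1 probe set per gene, eBayes settings, each KO array left out, pair of arrays as a block). Over all probe sets, leaving out 1 KO array gave 0 to 5 calls; the 5, none in these genes, came without KO1. The count at an unadjusted p under 0.05, 324 in the report, was 102 to 1146 with 1 KO array left out (102 without KO2, 1146 without KO1), 622 with no filter, 158 with the lowest 60% left out and 168 with 1 probe set per gene, where the number of tests also changed. With the pair of arrays (WT and KO1; KO2 and KO3) as a block it was 173; the cause was not tested. The calls made without KO1 included Xist and Eif2s3y, the genes that set the pairs apart. No paired analysis by replicate number was possible because the labels give the wild-type sample no number.

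No scaling or pseudocount turned the sign of a gene's brightest probe set. The choice of probe set did. With all probe sets of a gene averaged, the log2 difference was -0.025 for Qk, 0.52 for Ptbp1, 0.073 for Elavl2 and -0.035 for Celf1. With the second brightest it was -0.16 for Qk, 1.95 for Ptbp1 and 0.40 for Elavl2. That Ptbp1 probe set was at background in WT and KO3. For Elavl4, leaving out 1 KO array gave 0.12 to 1.41. For Ptbp2, leaving out 1 KO array gave -0.027 to 0.22. Signals near background, most of all in KO3, limit Msi1, Elavl3 and Elavl4.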
